A study of Mus musculus with 24 samples.

Results

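The immediate early genes described here are Fos, Fosb, Fosl2, Jun, Junb, Egr1, Egr2, Arc, Ier2 and Ier3. They were taken by gene symbol from the annotation of the deposited array table, where each of the 10 genes has 1 probe set, out of 19938 genes with a probe set of a single symbol. The study asked how 3% O2 differs from 21% O2 in neural stem and progenitor cultures of the mouse. Cells came from cortex or midbrain (mesencephalon) of C57Bl/6 embryos at embryonic day 14 and grew in expansion medium for 48 h or 13 d. RNA from a well of culture was read on a whole-transcript expression array. Every combination of region, time and oxygen holds 3 arrays, which gives 8 groups and 24 arrays: midbrain at 48 h and at 13 d, and cortex at 48 h and at 13 d, each at 3% and at 21% O2. All groups share the strain, the age and the expansion medium, and the labels name no engineered allele or drug. The cultures are mixed primary cells, not a sorted or cloned population.

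Immediate early genes are transcribed within minutes of a stimulus such as a growth factor or depolarisation, because the factors that switch them on, among them serum response factor with its ELK partners and CREB, are already present in the cell. Many of their products are transcription factors: the FOS and JUN proteins pair into the AP-1 complex, and the EGR proteins are zinc finger activators. In neurons the genes are widely used as a read-out of recent activity, and in dividing progenitors they respond to growth factor signals that run through the ERK kinases.

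Signals below are log2 values on the authors' normalized scale, and the words rose and fell are kept for genes with a limma adjusted p under 0.05 over all 23410 annotated probe sets. The labels do not say that the 3 arrays of a group came from separate animals or cultures, so these p-values measure the spread between arrays, which may be technical. In bulk RNA, fewer cells of a type and less RNA per cell cannot be told apart. The 6 midbrain arrays at 13 d carry the label of array run 1 and the other 18 arrays that of run 2, so run and group cannot be told apart for levels, while each oxygen comparison lies within 1 run.

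Labels and expression did not match in several arrays. All 12 of 12 cortex arrays correlated better with the midbrain group of the other labelled time, and the neuron marker list averaged 8.69 to 9.28 in cortex labelled 48 h against 11.15 to 11.25 in cortex labelled 13 d, where midbrain had 11.67 to 11.8 at 48 h and 8.17 to 8.43 at 13 d. Cortex times are therefore given as labelled. The library labelled cortex 48 h, 3% O2, replicate 1 also went against its region. In 5 of 5 midbrain patterning genes (En1, En2, Pax3, Pax7 and Otx2), chosen after their values were seen, it lay inside the range of the 12 midbrain arrays while the other 11 cortex arrays lay below that range. Its Pax3 signal was 8.51 against 7.02 in both other arrays of its group. Its signal of Emx2, a forebrain gene, was 6.86 against 8.87 and 9.07 in those arrays. Midbrain read 6.29 to 6.95 for Emx2 at 13 d but 9.13 to 9.45 at 48 h, so low Emx2 does not mark midbrain. Lhx2, another forebrain gene, read 8.03, below its midbrain range of 8.52 to 10.89. Tbr1 at 6.35 and Dlx2 at 7.03 lay above their midbrain ranges (6.02 to 6.22 and 6.68 to 6.99). Dlx1 at 6.80 lay inside its own (6.59 to 7.15). Each of these forebrain genes read lower than in every other cortex array. Oxygen differences of the 10 genes, the calls on gene lists and the profile likeness that rest on this array are given with and without it, while group levels include it.

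Promoter windows of 7 of the 10 genes were available from RefSeq (build GRCm38.p6), reaching from 250 bases before to 50 bases after the transcript start. Those of Fos and Fosb are shown because these genes were higher in every midbrain array than in any cortex array, and those of Fosl2, Egr2 and Ier3 because these genes rose at 3% O2. Capitals mark letters of the motifs searched on both strands: AP-1 (TGACTCA or TGAGTCA), the CRE (TGACGTCA), its short core (TGACG), the hypoxia-inducible factor core (ACGTG or GCGTG), the EGR site (GCGGGGGCG or GCGTGGGCG) and the CArG box bound by serum response factor. The short core also lies within the CRE.
Fos (chr12:85473640-85473939, plus strand): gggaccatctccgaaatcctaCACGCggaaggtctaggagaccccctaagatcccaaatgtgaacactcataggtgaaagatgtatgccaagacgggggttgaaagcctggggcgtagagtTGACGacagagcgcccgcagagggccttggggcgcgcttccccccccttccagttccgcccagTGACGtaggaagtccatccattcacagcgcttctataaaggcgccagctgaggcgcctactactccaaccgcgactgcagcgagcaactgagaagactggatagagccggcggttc
Fosb (chr7:19309996-19310295, minus strand): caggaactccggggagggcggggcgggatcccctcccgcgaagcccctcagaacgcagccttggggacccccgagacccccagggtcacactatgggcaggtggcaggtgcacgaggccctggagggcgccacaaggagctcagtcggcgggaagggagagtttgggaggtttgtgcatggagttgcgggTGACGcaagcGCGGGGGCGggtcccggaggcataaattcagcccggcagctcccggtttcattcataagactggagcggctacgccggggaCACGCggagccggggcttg
Fosl2 (chr5:32136222-32136521, plus strand): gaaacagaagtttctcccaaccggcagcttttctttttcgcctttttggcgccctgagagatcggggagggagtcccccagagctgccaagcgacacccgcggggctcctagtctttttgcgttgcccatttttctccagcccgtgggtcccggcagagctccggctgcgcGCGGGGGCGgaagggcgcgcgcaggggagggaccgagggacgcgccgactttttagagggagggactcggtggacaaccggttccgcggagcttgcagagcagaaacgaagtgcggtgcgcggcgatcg
Egr2 (chr10:67537619-67537918, plus strand): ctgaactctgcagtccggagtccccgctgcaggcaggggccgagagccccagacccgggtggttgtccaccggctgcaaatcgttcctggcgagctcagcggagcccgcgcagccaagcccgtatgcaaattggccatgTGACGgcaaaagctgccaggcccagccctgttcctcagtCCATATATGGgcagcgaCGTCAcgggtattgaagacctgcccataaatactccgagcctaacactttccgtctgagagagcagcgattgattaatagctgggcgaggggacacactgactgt
Ier3 (chr17:35821463-35821762, plus strand): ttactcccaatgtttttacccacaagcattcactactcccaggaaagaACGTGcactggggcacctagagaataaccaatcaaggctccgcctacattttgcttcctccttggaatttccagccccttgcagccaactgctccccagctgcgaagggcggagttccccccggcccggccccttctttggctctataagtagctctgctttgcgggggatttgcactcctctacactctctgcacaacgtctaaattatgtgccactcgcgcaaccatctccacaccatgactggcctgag

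The Fos window holds TGACG at bases -129 and -66 from the transcript start and the hypoxia-inducible factor core at -229. The Fosb window holds TGACG at -60, an EGR match at -50 and the hypoxia-inducible factor core at 32. The Fosl2 window holds an EGR match at -79. The Egr2 window, 1 of 5 for that gene, holds the short core at -111 and -55 and a CArG box at -72. Another Egr2 window, starting at 67535249 on chromosome 10 and not printed, holds overlapping hypoxia-inducible factor cores at -27 and -26. The Ier3 window holds the hypoxia-inducible factor core at -202. Among all 32851 windows of the table, 20.8% hold the short core, 1.63% a CArG box, 3.47% an EGR match, 43.8% the hypoxia-inducible factor core, 5.2% an AP-1 match and 1.79% a full CRE. No window of these 7 genes holds an AP-1 match or a full CRE, which says only that those letters are not in these windows.

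**Figure D1:**
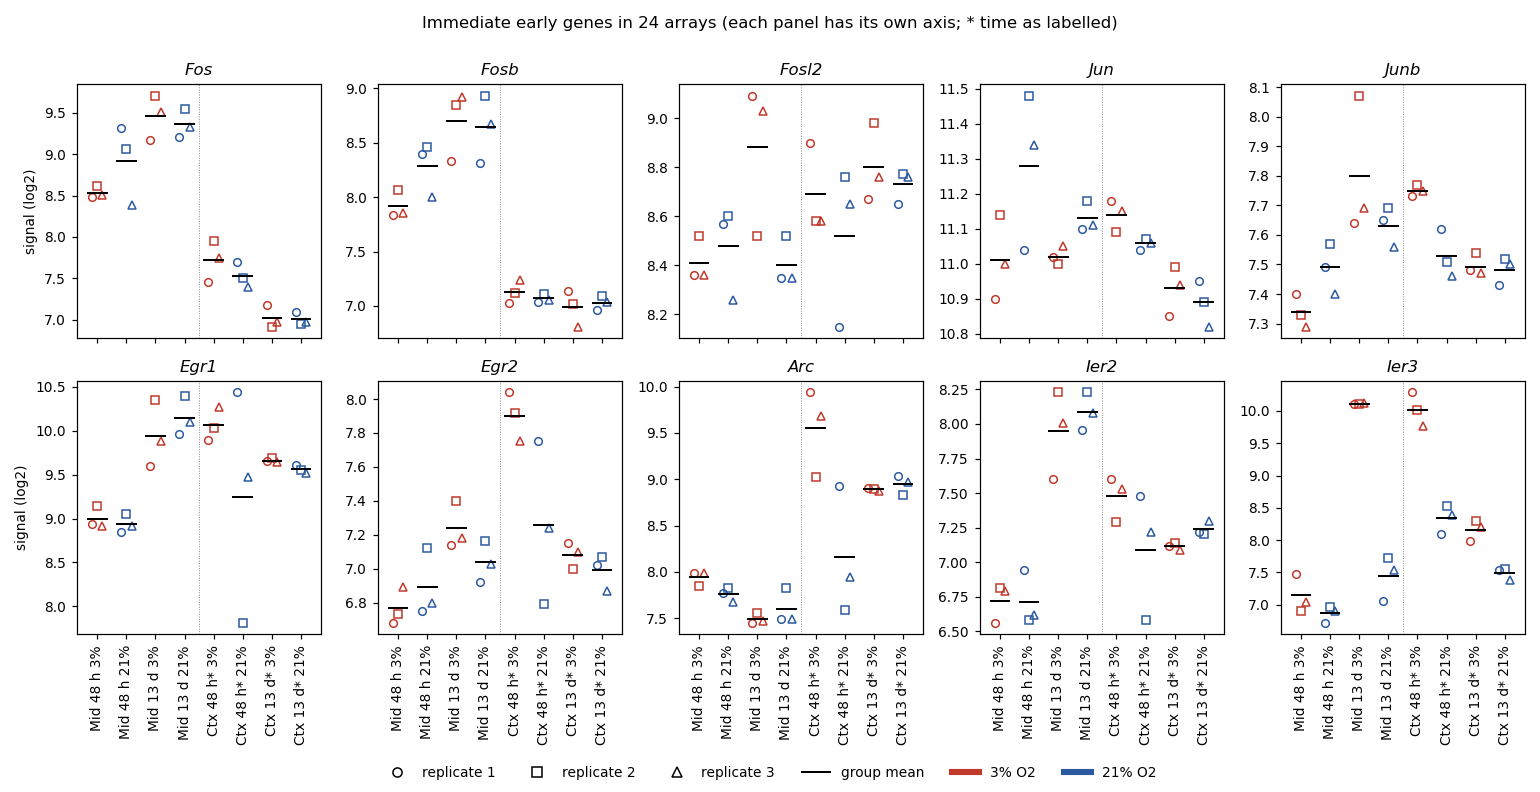
Signal of each immediate early gene (log2, vertical axis) in the 8 groups (horizontal axis), with 1 symbol per array, red for 3% O2, blue for 21% O2 and a bar at the group mean of 3 arrays; each panel has its own axis and cortex times are as labelled. Fos and Fosb are higher in all 12 midbrain arrays than in all 12 cortex arrays, and Ier3 reads 9.76 to 10.29 in midbrain 13 d and cortex labelled 48 h at 3% O2.

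Between 0 and 3 of the 10 genes passed the oxygen test in a stratum, and Ier3 had the widest difference, 6.35-fold higher at 3% O2 in midbrain 13 d. At midbrain 48 h, 0 of 10 genes rose and 0 fell, where 0.701% of all tested probe sets rose and 0.491% fell (limma, adjusted p; at an unadjusted p under 0.05 the count was 3). At midbrain 13 d, Ier3 and Fosl2 rose and 0 fell, where 11.2% of all probe sets rose and 12.7% fell. Ier3, Arc and Egr2 rose in cortex labelled 48 h and 0 fell, against 6.25% and 6.08% of all probe sets. In cortex labelled 13 d, 0 genes rose and 0 fell, against 0.543% and 0.0641% (1 gene, Ier3, had an unadjusted p under 0.05).

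The median difference of the 10 genes (3% minus 21% O2, log2) was -0.1 at midbrain 48 h, 0.09 at midbrain 13 d, 0.3 in cortex labelled 48 h and 0.03 in cortex labelled 13 d. The medians of all tested probe sets were -0.02, -0.01, 0.0 and -0.01. Without the cortex array that carries midbrain genes, Ier3 and Arc still rose in cortex labelled 48 h, against 3.76% of all probe sets higher and 4.55% lower, and the median of the 10 genes was 0.32. Of the genes that did not pass in that stratum with or without the array, Fos differed by 0.19 with it and 0.32 without, Fosb by 0.06 and 0.11, Fosl2 by 0.17 and 0.06, and Jun by 0.09 and 0.07. Egr1 differed by 0.83 with it and 0.91 without, Ier2 by 0.38 and 0.32, and Junb by 0.22 both ways.

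**Figure D2:**
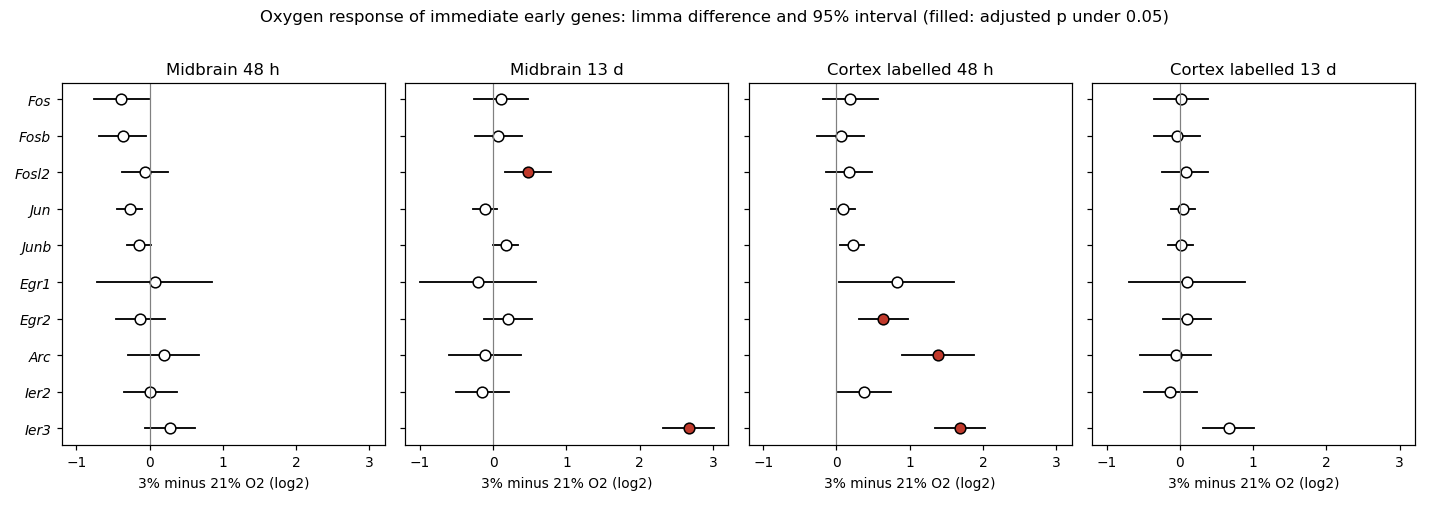
Difference between 3% and 21% O2 (log2, horizontal axis) for each of the 10 genes (vertical axis) in the 4 region and time strata, as limma's estimate with its 95% confidence interval from 3 arrays per group; filled points passed the threshold. The widest values are those of Ier3, 2.67 at midbrain 13 d and 1.68 for cortex labelled 48 h, and Arc stands at 1.39 in the latter.

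Fos, a leucine zipper protein that forms AP-1 with JUN proteins, had higher signals in midbrain than in cortex. In midbrain its arrays read 8.48, 8.61 and 8.51 at 48 h and 3% O2, and 9.31, 9.06 and 8.39 at 48 h and 21% O2. At 13 d they read 9.17, 9.70 and 9.51 at 3% O2, and 9.20, 9.54 and 9.33 at 21% O2. In cortex labelled 48 h they read 7.46, 7.95 and 7.75 at 3% O2, and 7.70, 7.50 and 7.40 at 21% O2.

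Cortex labelled 13 d was lowest, with 7.18, 6.92 and 6.97 at 3% O2 and 7.10, 6.95 and 6.98 at 21% O2. No cortex array reached the lowest midbrain array, whichever cortex time is set against whichever midbrain time. Among the 8 groups in order of their means, 5 of 7 neighbouring pairs overlapped, and the pairs that did not were the step from midbrain to cortex and the step between the labelled cortex times.

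Fosb, a close relative of Fos with the same partners, followed the same order of regions. Its group means were 7.92 and 8.29 in midbrain 48 h at 3% and 21% O2, 8.70 and 8.64 for midbrain 13 d, 7.13 and 7.07 for cortex labelled 48 h, and 6.99 and 7.03 for cortex labelled 13 d. All 12 midbrain arrays were above all 12 cortex arrays, and within each region every group overlapped with the next.

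The region difference was tested between midbrain and cortex at labelled 48 h and 21% O2, which share an array run. Of the 10 genes, 3 were higher in midbrain and 1 lower, where 24.3% of all probe sets were higher and 30.5% lower. Fos was 1.39 ± 0.18 higher on the log2 scale (SE, n = 3 arrays per group, a 2.61-fold difference, limma's adjusted p = 1.02e-06) and Fosb 1.22 ± 0.15 (2.33-fold, adjusted p = 7.72e-07). Jun was 0.23 higher (adjusted p = 0.0195) with overlapping arrays, and it missed the threshold without midbrain 21% O2 replicate 2 or 3. Ier3 was lower by -1.47 (2.78-fold, adjusted p = 1.59e-07). Without cortex 21% O2 replicate 2, the array with the lowest Egr1, Egr2, Arc and Ier2 of its group, those 4 genes were also lower in midbrain, by -1.02, -0.60, -0.68 and -0.63. So were Ier2 without midbrain 21% O2 replicate 1 (-0.49) and Egr2 without midbrain 21% O2 replicate 2 (-0.48). After quantile normalization Egr2 (-0.41, adjusted p = 0.0299) and Ier2 (-0.44, adjusted p = 0.0453) also passed, which makes 3 genes higher and 3 lower, and after median centring they did at adjusted p = 0.0361 and 0.0489. Because of the doubt about the cortex times, region and time cannot be told apart in this test.

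The library labelled cortex 48 h, 3% O2, replicate 1 read 7.46 for Fos and 7.03 for Fosb, inside the range of the other cortex arrays and below every midbrain array, although its midbrain patterning genes were at midbrain levels. The microglial marker list was higher in midbrain 48 h (mean 7.73 to 8.35) than in the other arrays (6.41 to 7.10). In midbrain 13 d, where that list read 6.41 to 6.56, the group means of Fos were 9.46 and 9.36, against 8.53 and 8.92 at 48 h. The midbrain times differ in array run, so run and time cannot be told apart for these levels. The part of microglia in the Fos signals was not tested.

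**Figure D3:**
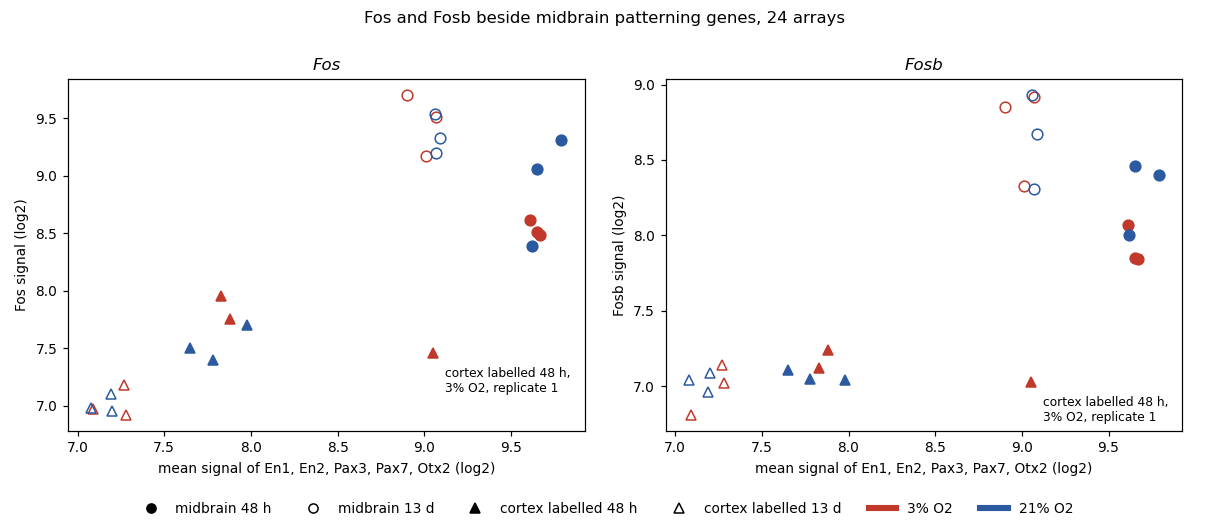
Signal of Fos (left) and Fosb (right) in log2 on the vertical axis against the mean log2 signal of 5 midbrain patterning genes on the horizontal axis, with 1 point for each of the 24 arrays. The midbrain arrays lie at the upper right and the cortex arrays at the lower left, apart from cortex labelled 48 h, 3% O2, replicate 1, which has a midbrain patterning mean of 9.05 with a Fos signal of 7.46.

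Neither Fos nor Fosb passed the oxygen test in any stratum. At midbrain 48 h Fos was lower at 3% O2 by -0.39 ± 0.18 (adjusted p = 0.314) and Fosb by -0.37 ± 0.15 (adjusted p = 0.26), with arrays that overlapped. The other 3 differences of Fos ran from 0.02 to 0.19 and those of Fosb from -0.04 to 0.07. Without midbrain 48 h, 21% O2, replicate 3, whose Fos signal of 8.39 was the lowest of the midbrain arrays, Fos fell by 0.65 (adjusted p = 0.0466). With array weights Fos rose by 0.39 in cortex labelled 48 h (limma's adjusted p = 0.0434), where 3017 of 23410 probe sets rose and 3282 fell.

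Fosl2, the FOS relative also called FRA-2 that outlasts Fos after a stimulus, stayed within a narrow band. Its 8 group means spanned 0.48, and all 7 neighbouring pairs overlapped. At midbrain 13 d its arrays read 9.09, 8.52 and 9.03 at 3% O2 and 8.35, 8.52 and 8.35 at 21% O2. The replicate 2 arrays of both oxygen levels were alike, with the 3% one just above, and the other 3% arrays were clearly above all 21% arrays.

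The difference for Fosl2 was 0.48 ± 0.15 (1.39-fold, adjusted p = 0.0255). With the replicate number as a block, since same-numbered midbrain arrays varied together, it was 0.48 with an adjusted p of 0.0557. At 13 d that shared variation was weak for replicate 1 (r 0.123, against 0.1668 with another number). It also missed the threshold without replicate 1 or 3 of either oxygen level (0.37 to 0.66 over the arrays left out, highest adjusted p 0.14). In the other strata its differences were -0.07, 0.17 and 0.08.

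Jun and Junb, AP-1 subunits that pair with the FOS proteins, were the steadiest of the 10 genes beside Fosl2. The 8 group means of Jun spanned 0.40 and those of Junb 0.46. At midbrain 48 h Jun read 10.90, 11.14 and 11.00 at 3% O2 and 11.04, 11.48 and 11.34 at 21% O2, each 3% array below the 21% array of its number. Its difference was -0.27 ± 0.08 (adjusted p = 0.108), and -0.27 with an adjusted p of 0.0458 when the replicate number was a block.

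Without midbrain 48 h, 21% O2, replicate 1 Jun fell by 0.39 (adjusted p = 0.00518). In the other strata Jun differed by -0.11, 0.09 and 0.04. Junb, which can oppose JUN in AP-1 complexes, read 7.73, 7.77 and 7.75 in cortex labelled 48 h at 3% O2 and 7.62, 7.51 and 7.46 at 21% O2. Those arrays were apart, and the difference of 0.22 ± 0.08 had an adjusted p of 0.0881, or 0.156 without replicate 1 of 3% O2 and 0.0459 without replicate 1 of 21% O2. With the replicate number as a block it was 0.0479, although the replicate 3 arrays there did not vary together (r -0.0437, against 0.3479 with another number). With array weights Junb rose by 0.28 (limma's adjusted p = 0.00159), where 3017 of 23410 probe sets rose and 3282 fell.

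At midbrain 13 d Junb differed by 0.17 ± 0.08 (adjusted p = 0.145), or by 0.25 with an adjusted p of 0.0372 without 3% O2 replicate 1.

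Egr1, a zinc finger activator induced by growth factors through serum response factor, varied most between arrays of a group. In cortex labelled 48 h it read 9.90, 10.03 and 10.27 at 3% O2 and 10.44, 7.81 and 9.47 at 21% O2, an SD of 1.33 in the latter group. The 21% arrays included both the highest and the lowest Egr1 signal of all 24 arrays. The difference of 0.83 ± 0.38 had an adjusted p of 0.181, and it ranged from 0.11 to 1.43 when an array was left out. Among those fits it passed only without 21% O2 replicate 1 (adjusted p = 0.0016). With array weights it was 0.78 and passed (limma's adjusted p = 0.0271), where 3017 of 23410 probe sets rose and 3282 fell.

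Elsewhere Egr1 was 8.94, 9.14 and 8.92 at midbrain 48 h and 3% O2 and 8.85, 9.05 and 8.91 at 21% O2, lower than at midbrain 13 d, where it read 9.60, 10.35 and 9.88 and then 9.96, 10.40 and 10.10. Its differences there were 0.07 and -0.21. In cortex labelled 13 d all 6 arrays lay between 9.52 and 9.69, and the 3% arrays were above the 21% arrays by 0.10, far from the threshold.

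Egr2, the EGR family member known from hindbrain patterning and myelinating Schwann cells, read 8.04, 7.92 and 7.75 in cortex labelled 48 h at 3% O2 and 7.75, 6.79 and 7.24 at 21% O2. Those 3% arrays were its highest in the study, and the lowest of them was just above the highest 21% array. Egr2 rose by 0.64 ± 0.16 (1.56-fold, adjusted p = 0.0102). Without 3% O2 replicate 1 the difference was 0.57 with an adjusted p of 0.0526, and without 21% O2 replicate 2 it was 0.41 with an adjusted p of 0.0656. A fit of these groups alone gave 0.64 with an adjusted p of 0.243.

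In the other 3 strata Egr2 differed by -0.13, 0.20 and 0.10, with arrays between 6.68 and 7.40. It followed Egr1 across groups only in part. Egr1 had means of 10.15 in midbrain 13 d at 21% O2 and 10.07 in cortex labelled 48 h at 3% O2, with overlapping arrays. Egr2 read 7.04 in the former group and 7.90, its highest mean, in the latter. Those groups differ in array run. Both genes had their lowest means in midbrain 48 h.

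Arc encodes a protein of synapses and dendrites whose transcript rises with neuronal activity. In cortex labelled 48 h it read 9.94, 9.02 and 9.68 at 3% O2 and 8.93, 7.59 and 7.95 at 21% O2. The groups did not overlap, although the lowest 3% array was close to the highest 21% array. Arc rose by 1.39 ± 0.23 (2.63-fold, 95% confidence interval 1.87 to 3.68, adjusted p = 0.000464). Without 3% O2 replicate 1 it rose by 1.2 (2.29-fold, adjusted p = 0.00405), and the fit of these groups alone gave 1.39 with an adjusted p of 0.154.

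In cortex labelled 13 d Arc read 8.91, 8.90 and 8.87 at 3% O2 and 9.04, 8.83 and 8.97 at 21% O2, a difference of -0.05. In midbrain all 12 arrays lay between 7.45 and 7.99, and the differences were 0.19 at 48 h, where the groups did not overlap, and -0.11 at 13 d. The cortex arrays were all above them except for 21% O2 replicates 2 and 3 of labelled 48 h.

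Egr1, Egr2, Arc and Ier2 shared an order in cortex labelled 48 h at 21% O2: replicate 1 was highest and replicate 2 lowest for each. In the same 3 arrays the ERK feedback list averaged 10.5, 9.83 and 10.14, the astrocyte list 9.11, 10.44 and 10.24, and the hypoxia panel 10.42, 11.16 and 11.04. The part of these differences in the oxygen results was not tested.

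Ier2, a small nuclear protein of the immediate early response, was highest in midbrain 13 d, with 7.60, 8.23 and 8.01 at 3% O2 and 7.96, 8.23 and 8.08 at 21% O2. The lowest of those 6 arrays was just above the highest cortex array, both 7.60 when rounded. That cortex array was labelled 48 h, 3% O2, replicate 1, the one that carries midbrain genes, and the next highest read 7.53. All 6 were above all midbrain 48 h arrays, which lay between 6.56 and 6.94. Oxygen differences of Ier2 were 0.01, -0.15, 0.38 and -0.13 in the order midbrain 48 h, midbrain 13 d, cortex labelled 48 h and cortex labelled 13 d, and none passed. With array weights the midbrain 13 d value was -0.33 and passed (adjusted p = 0.0326). In that setting 4306 of all 23410 probe sets rose and 5188 fell. The value in cortex labelled 48 h, 0.38 ± 0.17, had an adjusted p of 0.173, or 0.0214 without 21% O2 replicate 1.

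Ier3, also called IEX-1, is a stress-induced protein linked to cell survival and ERK signalling. At midbrain 13 d it read 10.10, 10.10 and 10.12 at 3% O2 and 7.06, 7.73 and 7.54 at 21% O2. Every 3% array stood more than 2 log2 units above every 21% array. Ier3 rose by 2.67 ± 0.16 (6.35-fold, 95% confidence interval 5.01 to 8.06, adjusted p = 1.3e-09), and the difference ranged from 2.48 to 2.81 when an array was left out.

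For cortex labelled 48 h Ier3 read 10.29, 10.01 and 9.76 at 3% O2 and 8.10, 8.53 and 8.39 at 21% O2, again without overlap. It rose by 1.68 ± 0.16 (3.21-fold, 95% confidence interval 2.53 to 4.08, adjusted p = 2.01e-06), and by 1.55 without 3% O2 replicate 1 (2.93-fold, adjusted p = 1.67e-05). In both strata the call held in every alternative setting and with each array left out.

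In cortex labelled 13 d Ier3 read 7.98, 8.30 and 8.20 at 3% O2 and 7.54, 7.56 and 7.38 at 21% O2. The groups did not overlap, and the difference of 0.67 ± 0.16 had an adjusted p of 0.086. It passed among the brighter probe sets, with array weights and in the fit of these groups alone, where the adjusted p was 0.00872. At midbrain 48 h Ier3 read 7.47, 6.91 and 7.05 at 3% O2 and 6.72, 6.97 and 6.91 at 21% O2, overlapping, with a difference of 0.28 (adjusted p = 0.45). Ier3 had the widest span of the 10 genes, 3.24 between the highest and lowest of the 8 group means.

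Whether the oxygen response itself differed between strata was tested as a difference of differences. Between midbrain 13 d and 48 h, 1 of 10 genes had a higher response and 0 a lower one, where 6.86% of all probe sets were higher and 8.24% lower. That gene was Ier3, by 2.39 ± 0.23 (adjusted p = 2.04e-06). Blocking on the replicate number added Fosb (0.44, adjusted p = 0.0382) and Junb (0.32, adjusted p = 0.0366). Single arrays left out also brought in Fos (0.76, without 48 h, 21% O2, replicate 3), Jun (0.29, without 48 h, 21% O2, replicate 1), Fosb (0.62) and Junb (0.40), both without 13 d, 3% O2, replicate 1, Fosl2 (0.72, without 13 d, 3% O2, replicate 2) and Junb again (0.37, without 13 d, 3% O2, replicate 3).

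Between cortex labelled 13 d and 48 h, 0 genes had a higher response and 2 a lower one, against 1.91% and 2.23% of all probe sets. Arc differed by -1.45 ± 0.33 (adjusted p = 0.0171) and Ier3 by -1.02 ± 0.23 (adjusted p = 0.0175). Without the cortex array that carries midbrain genes the values were -1.25 (adjusted p = 0.0485) and -0.88 (adjusted p = 0.0492). The call for Arc was lost without 48 h, 21% O2, replicate 3 (highest adjusted p 0.057) and that for Ier3 without 13 d, 3% O2, replicate 1 (highest adjusted p 0.055). Without 48 h, 21% O2, replicate 1, Egr1 (-1.33), Egr2 (-0.79) and Ier2 (-0.70) passed as well.

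Between midbrain and cortex at labelled 48 h, 0 genes had a higher response and 3 a lower one, against 2.89% and 2.99% (677 higher and 700 lower, or 851 and 519 after median centring). Because the cortex times are in doubt, region and time cannot be told apart in this comparison. Ier3 differed by -1.41 ± 0.23 (adjusted p = 0.00144), Arc by -1.21 ± 0.33 (adjusted p = 0.0355) and Egr2 by -0.77 ± 0.22 (adjusted p = 0.0482). Without the cortex array in question Ier3 still passed, at -1.27 (adjusted p = 0.00382), while Arc at -1.01 (adjusted p = 0.0891) and Egr2 at -0.70 (adjusted p = 0.101) did not. Leaving out single arrays moved Arc between -1.59 and -0.92 and Egr2 between -1.01 and -0.54, and most of those fits lost the call. Without cortex 21% O2 replicate 1, Junb (-0.41) and Egr1 (-1.36) passed, and Fos (-0.84) did without midbrain 21% O2 replicate 3. Jun passed without midbrain 21% O2 replicate 1 (-0.48) or 3% O2 replicate 2 (-0.42). Blocking on the replicate number added Jun (-0.36, adjusted p = 0.0214) and Junb (-0.36, adjusted p = 0.0343), although same-numbered arrays of cortex labelled 48 h did not vary together in every pair.

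Between midbrain and cortex at labelled 13 d, 1 gene had a higher response and 0 a lower one, against 6.71% and 6.8%. It was Ier3, by 2.00 ± 0.23 (adjusted p = 1.2e-05), with a range of 1.81 to 2.14 when an array was left out. Region and time cannot be told apart here either. These differences share groups with each other and with the single oxygen comparisons. Read by the arrays, Ier3 was 9.76 or higher at 3% O2 in midbrain 13 d and cortex labelled 48 h, and at or below 8.30 at 3% O2 in the other strata.

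Between the labelled cortex times at 21% O2, 1 gene was higher at labelled 13 d and 2 were lower, where 16.8% of all probe sets were higher and 20.4% lower. Arc was 0.79 ± 0.23 higher (adjusted p = 0.0105), with arrays that overlapped and a call lost without 48 h replicate 2 or 3. Ier3 was lower by -0.85 ± 0.16 (adjusted p = 0.000317) and Fos by -0.53 ± 0.18 (adjusted p = 0.0239), neither with overlap. The call for Fos was lost without 48 h replicate 1 or 13 d replicate 2 or 3 (-0.59 to -0.44 over the arrays left out). Egr1 was higher without 48 h replicate 1 (0.92) and Egr2 lower without 48 h replicate 2 (-0.51).

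Other genes of the early response moved with oxygen in the same strata. The list counts that follow stand beside 11.2% of all probe sets higher and 12.7% lower at midbrain 13 d, and 6.25% higher and 6.08% lower in cortex labelled 48 h. Of 36 further immediate early genes, 19 rose and 6 fell at midbrain 13 d, 8 rose and 2 fell in cortex labelled 48 h, and 0 passed limma's adjusted test at midbrain 48 h or in cortex labelled 13 d (7 and 2 at an unadjusted p under 0.05). Trib1, a pseudokinase, rose by 0.81 and 1.2 in these strata, and Klf10, a zinc finger repressor, by 1.02 and 1.47. Btg2, an antiproliferative gene, fell by 1.06 and 1.15. Sik1, a kinase that restrains CREB signalling, rose by 1.75 at midbrain 13 d and differed by 0.30 in cortex labelled 48 h (adjusted p = 0.0651). Without the cortex array that carries midbrain genes, Trib1 rose by 1.23, Klf10 by 1.46 and Btg2 fell by 1.13 in cortex labelled 48 h, and Sik1 differed by 0.18.

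Of 12 ERK feedback genes, phosphatases, SPROUTY and SPRED inhibitors and ETV factors that are induced by ERK signalling, 10 rose at midbrain 13 d and 8 in cortex labelled 48 h, with 0 lower in either and 0 called by limma in midbrain 48 h or cortex labelled 13 d (1 and 0 at an unadjusted p under 0.05). Spry1 read 11.24, 11.57 and 11.41 at 3% O2 against 9.67, 9.88 and 9.71 at 21% O2 at midbrain 13 d, a rise of 1.66 ± 0.18 (adjusted p = 1.24e-06). It rose by 0.96 in cortex labelled 48 h, and Dusp4 rose by 1.21 and 1.17 in the same strata. Without the cortex array that carries midbrain genes, 6 of the 12 rose in cortex labelled 48 h, as did 6 of the 36 further early genes with 2 lower. Spry1 then rose by 0.90 and Dusp4 by 0.89.

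Of 14 genes for other AP-1 or MAF partners, which share Maff with the early gene list, 5 rose at midbrain 13 d, 4 rose and 1 fell in cortex labelled 48 h, and 1 fell at midbrain 48 h. Maff rose by 0.73 and 0.52 and Atf4, the effector of the integrated stress response, by 0.47 and 0.48, while Jund, an AP-1 subunit, fell by 0.31 in cortex labelled 48 h. Of 19 upstream regulators, 8 rose and 2 fell at midbrain 13 d and 5 rose in cortex labelled 48 h. Map2k1, the MEK kinase that activates ERK, rose by 0.62 and 0.49, and Elk3, a partner of serum response factor, by 0.83 and 0.79. Without the same cortex array, 2 of the 14 partners rose with 1 lower and 4 of the 19 regulators rose in cortex labelled 48 h. Maff then rose by 0.43, Atf4 by 0.38, Map2k1 by 0.33 and Elk3 by 0.68, and Jund fell by 0.30.

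A panel of 10 targets of the hypoxia-inducible factors was called in all 4 strata. It had 9 genes higher at midbrain 48 h, 9 at midbrain 13 d, 4 in cortex labelled 48 h and 10 in cortex labelled 13 d, with 0 lower. Of all probe sets, 0.701%, 11.2%, 6.25% and 0.543% were higher, in the same order. In cortex labelled 13 d and midbrain 48 h the panel's median differences were 1.92 and 1.19, while 0 of the 10 immediate early genes passed. Ier3 nonetheless differed by 0.67 in cortex labelled 13 d without overlap (limma's adjusted p = 0.086), and it passed in some alternative settings. The panel's median was 1.01 at midbrain 13 d, where 2 of the 10 immediate early genes rose. In cortex labelled 48 h, where 3 of them rose, it was 0.61. It was 0.54 without replicate 1 of 3% O2, with 3 of 10 panel genes higher. Of 10 late activity genes 4 rose and 2 fell at midbrain 13 d, and of 11 heat shock genes 3 rose and 2 fell. There 11.2% of all probe sets rose and 12.7% fell. Elsewhere neither list had more than 2 calls in a direction, and without the cortex array in question the late activity list had 1 higher and 1 lower and the heat shock list 2 higher in cortex labelled 48 h.

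**Figure D4:**
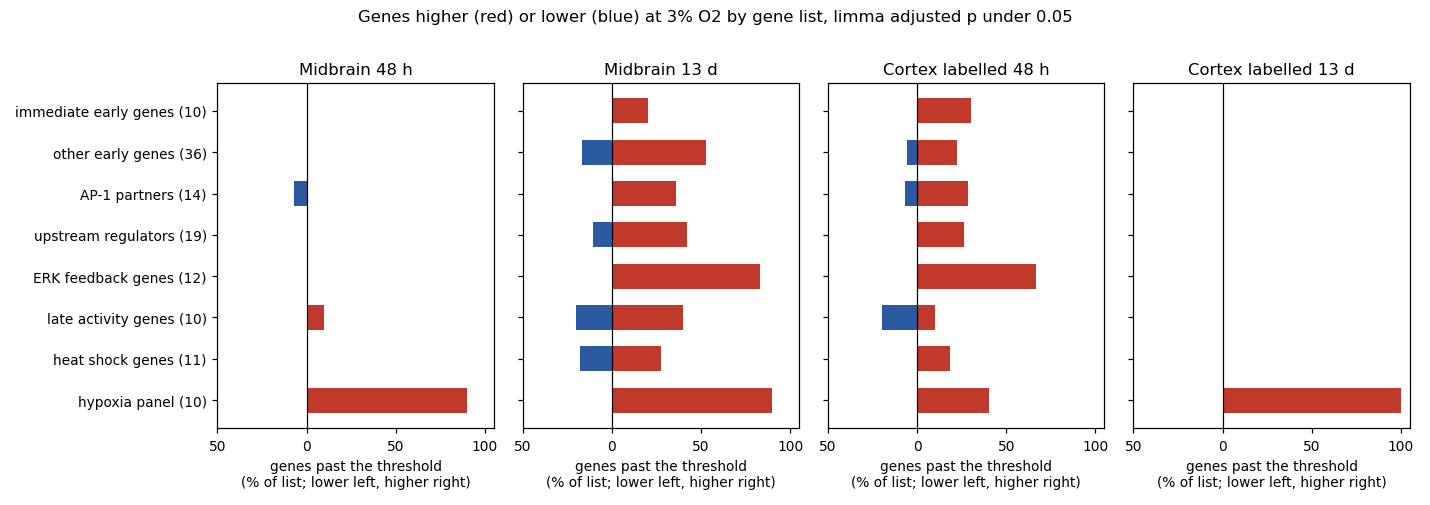
Share of each gene list (percent of its measured genes, horizontal axis) that rose (red, right) or fell (blue, left) at 3% O2 in the 4 strata under limma's adjusted p, with the number of genes of each list in parentheses. The ERK feedback list has 10 of 12 higher at midbrain 13 d and 8 of 12 in cortex labelled 48 h. The hypoxia panel has 9 or 10 of 10 higher where no immediate early gene was called, although Ier3 missed narrowly in cortex labelled 13 d (adjusted p = 0.086). It also has 9 of 10 higher at midbrain 13 d, where Ier3 and Fosl2 rose. In cortex labelled 48 h, where Ier3, Arc and Egr2 rose, it has 4 of 10. Of all probe sets, 0.701%, 11.2%, 6.25% and 0.543% were higher, in the order of the panels.

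Marker genes of cell types moved with some of these results. At midbrain 13 d, 6 of 12 pericyte and fibroblast markers rose (list mean 7.67 to 8.03 at 3% O2 and 7.16 to 7.22 at 21% O2) and 3 of 9 oligodendrocyte markers fell with 1 higher, where 11.2% of all probe sets rose and 12.7% fell. In cortex labelled 48 h, 6 of 12 neuron markers fell and 1 rose (8.69 to 9.07 at 3% O2 and 9.11 to 9.28 at 21% O2), and 4 of 11 progenitor markers fell with 1 higher, where 6.25% of all probe sets rose and 6.08% fell. Their part in the calls for Ier3, Fosl2, Arc and Egr2 was not tested. In cortex labelled 48 h without 3% O2 replicate 1, where Ier3 and Arc still rose, 0 of 12 pericyte and fibroblast markers rose with 1 lower, 4 of 12 neuron markers fell with 2 higher, and 4 of 11 progenitor markers fell with 1 higher.

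The genes with the most similar profiles were found by the root mean square difference of the centred 8 group means, over 18271 other genes. For Fos they were Pax3 (0.248), Cnpy1 (0.28) and Fosb (0.283). For Egr1 they were Tgif1 (0.123), Dtx3l (0.156) and Triqk (0.179), with Ier2 at rank 8 (0.198). For Arc they were Myc (0.303), Dctd (0.314) and Dkc1 (0.325).

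For Ier3 they were Mamdc2 (0.31), Arhgap29 (0.351) and Apln (0.352), each with its highest group means at 3% O2 in midbrain 13 d and cortex labelled 48 h. Junb, whose own profile spanned little, was matched within 0.0374 by Atp8b1, H2-K2 and Map3k6. Those genes also spanned little, with group means of 6.05 to 6.41, 5.80 to 6.24 and 6.63 to 7.02, below the lowest array median of 7.35. No other member ranked near Ier3 or Arc: the closest to Ier3 was Egr2, at rank 1342, and the closest to Arc was also Egr2, at rank 710 (1411 and 992 without the cortex array described above). Pax3 and Cnpy1 read 8.51 and 8.45 in the library labelled cortex 48 h, 3% O2, replicate 1, above the other arrays of its group, so the search was repeated without that array, a choice made after seeing the data. The nearest to Fos were then Pax3 (0.219), Fosb (0.288) and Cnpy1 (0.308). Rps28 (0.211) took the place of Triqk (rank 27) beside Egr1, with Ier2 at rank 22, Hopx (0.266) came first for Arc with Dkc1 at rank 5, and Ndufa4l2 (0.344) came second for Ier3 with Apln at rank 4. The 3 genes nearest to Junb were the same. These are descriptions over 8 groups that share arrays across all genes.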

How the data were processed

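Expression was measured on 24 whole-transcript arrays (biotin-labelled cDNA, per the labels' protocols). The values are deposited log2 signals, already normalized by the authors per the labels. Their normalization method: not given in the sources used here. The log2 scale was read from their range (4.65 to 14.49). Of 28856 probe sets, 23410 have at least 1 symbol, 21789 a single symbol and 5446 none here. Groups came from sample titles. limma 3.58.1 in R 4.3.3 fitted 8 group means with 16 residual degrees of freedom to the annotated probe sets, with Benjamini-Hochberg adjustment and a threshold of 0.05. The steps were tested on simulated data. Same-numbered arrays deviated together in both midbrain strata (r 0.12 to 0.42, all above 0.1). Replicate 1 of midbrain 13 d did so no more than arrays of unlike number (0.123 against 0.1668). Blocked values are given where they change a call. In cortex same-numbered arrays did not deviate together in every pair. Array number limits precision.

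The 10 genes and all lists were chosen with earlier results of these data known. All 10 genes are named, and other list genes by smallest p in an oxygen comparison (2 per list) or by passing in 3 of 4. Likeness covered Fos, Egr1, Arc, Junb and Ier3, leaving out clone and predicted names. Alternatives were all probe sets, the brighter ones (11003, mean above 8), quantile normalization, median centring, a variance trend, the compared groups alone, array weights, a replicate block and leaving out each array.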

Additional observations from a re-analysis of the deposited data

Results flagged for a closer look

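All 7 results below were singled out because the oxygen response of a gene (3% minus 21% O2, log2) differed between strata in limma's test of the difference itself, with 3 arrays per group. The response of Ier3 was 2.39 higher at midbrain 13 d than at 48 h. In cortex, the responses of Arc and Ier3 at labelled 13 d minus labelled 48 h were -1.45 and -1.02. Each kept its call in 11 of 12 fits with an array left out. At labelled 48 h, midbrain minus cortex was -0.77 for Egr2, -1.21 for Arc and -1.41 for Ier3. Egr2 and Arc missed the threshold without the library labelled cortex 48 h, 3% O2, replicate 1. They also missed it without most other single arrays, keeping the call in 3 (Egr2) and 2 (Arc) of 12 such fits. At labelled 13 d, midbrain minus cortex was 2.0 for Ier3. Because the cortex times are in doubt, region and time cannot be told apart in the midbrain minus cortex values. Groups of 3 arrays are too small for a test of single outlying arrays.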

How the results depend on the processing

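Of 1600 recomputed values of the 10 genes, 1494 kept their direction or stayed uncalled, 59 became calls, 47 lost theirs and no call turned its direction; 46 uncalled values had another sign. The number of the 10 genes past the threshold changed as follows. At midbrain 48 h it was 0, but 1 with array weights and 1 with the replicate block (Jun), and 0 to 1 with an array left out. At midbrain 13 d it was 2, but 1 with the replicate block, and 1 to 2 with an array left out. It was 3 with array weights (Ier2 added), which passed 9494 of all 23410 probe sets. In cortex labelled 48 h it was 3, but 1 with the compared groups alone, and 2 to 6 with an array left out. It was 6 with array weights (Fos, Junb and Egr1 added), which passed 6299 of all 23410 probe sets. In cortex labelled 13 d it was 0, but 1 among brighter probe sets, 1 with the compared groups alone and 1 with array weights. For the difference of responses between midbrain times it was 1, but 2 after quantile normalization and 3 with array weights or the replicate block, and 1 to 3. Between cortex times it was 2, but 1 with the compared groups alone and 4 with array weights, and 1 to 5. Between regions at labelled 48 h it was 3, but 1 with the compared groups alone, 6 with array weights and 5 with the replicate block, and 1 to 5; Egr2 there had an adjusted p of 0.0512 over all probe sets, 0.06 after quantile normalization and 0.0587 after median centring in limma. At labelled 13 d it was 1, but 2 with array weights. The region test gave 4, with 3 to 8. There Egr2 and Ier2 were called lower after quantile normalization and median centring (6 calls each), Egr2 with a variance trend and Ier2 with array weights. Jun had limma's adjusted p of 0.127 with the replicate block and 0.151 with the compared groups alone. The cortex time test gave 3, with 2 to 3, where Arc had 0.0748 with the block and 0.117 with the groups alone. In both tests the block was fitted to the compared groups alone, and pairing by number between those groups was not checked. The causes were not tested.

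Over all probe sets, calls at midbrain 48 h were 279, against 162 among brighter ones, 422 after quantile normalization, 4 with the groups alone and 141 to 302 with an array left out. The 5584 calls at midbrain 13 d became 9494 with array weights. For cortex labelled 48 h, 2886 became 311 with the groups alone, 6299 with array weights and 1725 to 4210. For cortex labelled 13 d, 142 became 348, 815 and 68 to 110. The differences of responses went from 3536 to 5708 with array weights between midbrain times. Between cortex times 967 became 377 with the groups alone, 4323 with array weights, 1596 with the replicate block and 429 to 2970. Between regions at labelled 48 h 1377 became 331, 3597, 2116 and 752 to 3084, and at labelled 13 d 3162 became 4873 with the groups alone and 6745 with array weights. Same-numbered cortex arrays did not all deviate together. The brighter setting did not test Fosb, Junb, Egr2 and Ier2. The check of region genes was made after seeing the data. Groups of 3 arrays limit the precision throughout.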
